A study of Homo sapiens with 4 samples.

Results

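The transcription factor ATF4 and 36 genes tied to it were followed in MIA-PaCa2 cells, a line from a human pancreatic cancer, after selection for resistance to AMG510 (sotorasib), a targeted cancer drug. These 37 genes are the factors and outputs of the ATF4 stress arm (15 genes), enzymes of serine and one-carbon synthesis (7), enzymes that make other amino acids (6) and amino acid transporters (9). All 37 were found among the 57773 listed gene IDs by matching symbol to Ensembl ID. Resistant cells had been grown in medium with a rising dose of AMG510 over 2 months, up to 5 µM, and untreated cells had not; all cells shared the same line and the same serum-supplemented medium. Each group held 2 libraries of polyadenylated RNA, which the design text assigns to 2 resistant and 2 untreated cell populations. In the treatment label of resistant replicate 2 the drug is written AMG511, while AMG510 stands in its title and in the design text. The labels do not state whether drug was present at harvest. Below, a pair of values gives replicate 1 and then replicate 2 of a group.

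ATF4 is translated when phosphorylation of the initiation factor eIF2 slows general protein synthesis, as happens under amino acid shortage (sensed by the kinase GCN2, encoded by EIF2AK4), stress of the endoplasmic reticulum (sensed by PERK, encoded by EIF2AK3) and other insults. ATF4 then binds DNA with C/EBP partners at a composite element, and drives both stress genes such as DDIT3 and ATF3 and genes that supply amino acids. Because its main control is translational, the level of ATF4 mRNA is no measure of its protein.

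Expected counts summed to 30146559 and 33074965 in the resistant libraries and to 38052558 and 35747414 in the untreated ones, and 16090 genes had enough counts for a test. Of the 37 genes 36 were tested. The exception was STC2, which encodes a secreted glycoprotein: it had 1 count in resistant replicate 2 and 0 in the other libraries, where finding none still leaves room for 0.0801 to 0.104 CPM (counts scaled to library depth). Groups were compared with edgeR's quasi-likelihood test, and calls were made below 0.05 after adjustment over all tested genes (Benjamini-Hochberg). At that threshold 34.0% of all tested genes were called, 16.6% higher and 17.4% lower in resistant cells, so a call by itself does not set a gene apart here. The p-values reflect only how these libraries vary, because the design text does not say how or when the populations of a group were split or grown, and limits from counts cover counting error only. Since the RNA is bulk, fewer cells with a transcript and less of it per cell cannot be told apart. Summed levels of 7 epithelial and cancer line markers were 9961 and 9317 CPM in resistant and 11672 and 9531 CPM in untreated libraries, and most of that was VIM (7906 and 6697 against 6037 and 5575 CPM). The keratins KRT8 (log2 fold change −1.23, adjusted p = 0.00268, edgeR) and KRT18 (−0.88, 0.00692) were called lower in resistant cells, and the epithelial markers EPCAM, CDH1 and KRT7 were at or below 2.09 CPM in every library. Of 5 fibroblast markers the sum was 111 and 71.9 CPM in resistant libraries against 21.8 and 22.8 CPM in untreated ones; most of it was COL3A1, which was called higher (2.09, adjusted p = 1.22e-04, edgeR), as was PDGFRB (5.07 and 2.16 against 0.0542 and 0.187 CPM, adjusted p = 7.69e-04, edgeR), while DCN and LUM were at or near 0. Sums of immune markers (35.8 and 11.4 against 21.0 and 29.97 CPM) and of endothelial markers (5.87 and 1.04 against 8.45 and 4.22 CPM) overlapped between the groups, and the immune-defining PTPRC stayed at or below 0.134 CPM. Of the immune markers, LYZ (0.414 and 0.237 against 4.55 and 10.1 CPM, adjusted p = 2.82e-04, edgeR) and CD14 (1.52 and 1.75 against 6.04 and 6.09 CPM, adjusted p = 0.00263, edgeR) were called lower in resistant cells, and CD68, the largest part of the sum in resistant libraries, did not pass (adjusted p = 0.376, edgeR). What part these markers have in the results was not tested.

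The element bound by ATF4 with its partners was looked for as the letters TGATGNAA, on both strands, in RefSeq promoter windows (GRCh38.p14, 250 bases before to 50 after a gene's start). At least 1 window was available for 30 of the 37 genes, and 10 of the 30 (33.3%) held the element in some window, against 4.46% of all 27305 genes with a window. Counted by window, 12 of 51 windows of these genes (23.5%) held it, against 3.62% of all 35116. A match is a match of letters and not a measured binding site. The genes were gathered as ATF4 targets, so the share describes how the list was made. ATF3, SLC3A2 and SLC38A1 also had windows at other annotated starts, without the element. Which start is used in these cells was not tested. The windows of the 4 called genes with a match are printed below to show where the element lies. Capitals mark it, and letters run 5′ to 3′ along the gene's strand.
ATF3, chr1:212565157-212565456, plus strand, element starting 191 bases before the start: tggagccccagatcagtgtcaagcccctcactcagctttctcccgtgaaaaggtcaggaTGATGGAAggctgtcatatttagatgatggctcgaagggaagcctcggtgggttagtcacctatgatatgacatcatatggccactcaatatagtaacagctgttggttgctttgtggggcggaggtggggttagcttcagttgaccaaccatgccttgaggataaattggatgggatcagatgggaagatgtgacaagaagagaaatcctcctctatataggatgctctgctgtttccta
CHAC1, chr15:40953221-40953520, plus strand, element read on the opposite strand, starting 209 bases before the start: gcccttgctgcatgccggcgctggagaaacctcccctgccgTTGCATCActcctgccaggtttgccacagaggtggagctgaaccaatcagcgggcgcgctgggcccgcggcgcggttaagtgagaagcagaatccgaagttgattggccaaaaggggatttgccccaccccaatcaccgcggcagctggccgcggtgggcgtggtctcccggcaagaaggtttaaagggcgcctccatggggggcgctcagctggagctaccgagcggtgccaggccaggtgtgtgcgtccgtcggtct
SLC3A2, chr11:62881449-62881748, plus strand, element read on the opposite strand, starting 38 bases after the start: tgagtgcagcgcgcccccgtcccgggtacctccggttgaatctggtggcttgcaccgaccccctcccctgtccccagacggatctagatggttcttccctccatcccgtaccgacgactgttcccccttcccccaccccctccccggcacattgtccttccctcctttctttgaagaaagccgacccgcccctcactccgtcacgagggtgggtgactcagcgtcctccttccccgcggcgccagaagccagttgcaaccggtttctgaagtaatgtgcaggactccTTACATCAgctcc
SLC38A1, chr12:46266467-46266766, minus strand, element starting 4 bases before the start: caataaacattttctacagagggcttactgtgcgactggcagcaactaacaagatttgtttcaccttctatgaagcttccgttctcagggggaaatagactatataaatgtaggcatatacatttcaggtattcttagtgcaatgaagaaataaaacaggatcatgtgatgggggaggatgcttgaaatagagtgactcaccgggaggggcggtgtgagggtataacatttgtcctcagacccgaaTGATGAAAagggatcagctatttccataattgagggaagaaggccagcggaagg

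In 6 further genes the element was present and the gene did not pass the test. These sites, chosen after the values were seen, are given with the bases on either side for comparison with the windows above (capitals as before).
CEBPG, chr19:33374061-33374088, plus strand: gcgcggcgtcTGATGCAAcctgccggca
MTHFD1L, chr6:150866347-150866374, plus strand: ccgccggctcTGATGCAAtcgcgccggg
ASNS, chr7:97872459-97872486, minus strand: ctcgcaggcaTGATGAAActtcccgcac
SLC7A1, chr13:29595664-29595691, minus strand: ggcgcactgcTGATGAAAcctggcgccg
SLC1A4, chr2:64989382-64989409, plus strand, opposite-strand reading: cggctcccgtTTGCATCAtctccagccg
SLC1A5, chr19:46784894-46784921, minus strand: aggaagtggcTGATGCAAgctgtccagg

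Sorted by outcome, the element was found in 3 of the 11 genes with a window that were called higher in resistant cells (ATF3, CHAC1 and SLC3A2), in 1 of 2 called lower (SLC38A1) and in 6 of 16 that did not pass. By role, 5 of 8 transporters held it, against 3 of 14 stress genes, 1 of 4 serine and one-carbon enzymes and 1 of 4 other enzymes. Genes with the element thus lay on both sides of the comparison and among genes that did not pass. SLC38A1, with the element next to 1 of its annotated starts, was the transporter that was lowest in resistant cells relative to untreated ones.

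Setting resistant against untreated cells asks how expression of these genes differs after selection in the drug. Of the 14 tested stress genes 8 were called higher in resistant cells, with the largest differences in NUPR1 (46.7-fold), ATF3 (11.8-fold) and DDIT3 (9.58-fold), while the others called ranged down to 1.51-fold for CEBPB. ATF4 itself differed by 1.42-fold and did not pass the test. The serine enzymes PHGDH and SHMT2 were lower, and the cystathionine-cleaving enzyme CTH was higher. Among transporters SLC38A1 fell and its close relative SLC38A2 rose. Over all tested genes of the set, 13 were called higher and 3 lower, beside 16.6% and 17.4% of all tested genes, and 20 did not pass. The libraries of the groups did not overlap in 17 genes that were higher and 10 that were lower; over all tested genes such a lack of overlap was found in 34.6% on the higher side and 36.3% on the lower side, 70.9% in all. The call came with at least a 2-fold difference in 9 genes on the higher side and 1 on the lower, against 9.76% and 7.55% of all tested genes. The median log2 fold change was 0.33 over the 36 genes, beside −0.01 over all tested genes.

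**Figure D1:**
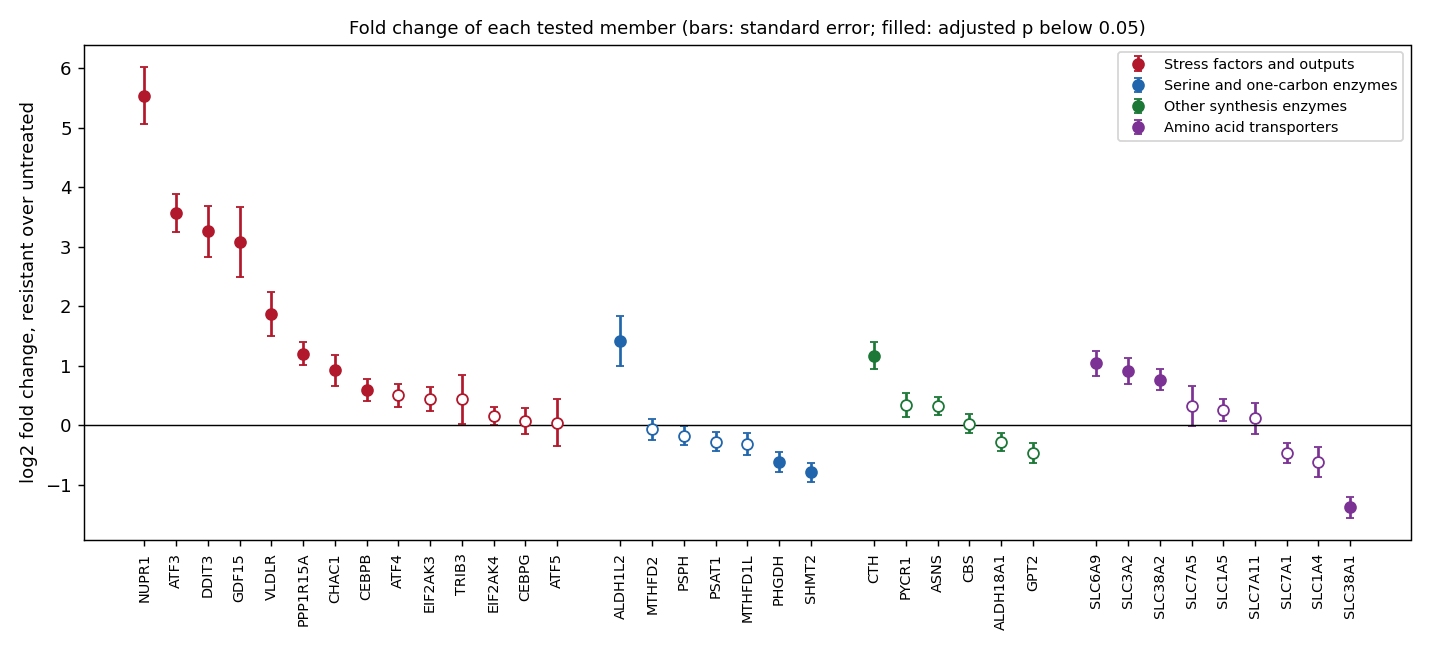
Log2 fold change (resistant over untreated; vertical axis) of the 36 tested genes by role, with bars for the standard error of the edgeR fit and filled points for an adjusted p below 0.05. All 14 stress genes lie above 0, and 6 of the 7 serine and one-carbon enzymes lie below it.

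Among the stress arm's 14 tested genes 8 were called higher and none lower, beside 16.6% and 17.4% of all tested genes. All 14 had a positive log2 fold change, with a median of 0.76. No overlap between the groups, with resistant libraries higher, was seen in 11 of the 14, beside 34.6% of all tested genes. ATF4 (ENSG00000128272) had 464 and 337 CPM in resistant libraries, against 301 and 265 CPM in untreated ones. Its resistant libraries were thus above both untreated ones, with replicate 2 not far above, and the log2 fold change of 0.50 ± 0.19 (SE) did not pass (adjusted p = 0.0637, edgeR). The median of tested protein-coding genes on chromosome 22, where ATF4 lies, was 0.46 in the same comparison, so ATF4 was close to the median of its chromosome. The call depended on the setting. The adjusted p was 0.0380 with DESeq2, 0.0344 with no filter on low counts, 0.0473 with a stricter filter and 0.0450 with upper-quartile scaling. ATF4 was not called with RLE scaling, limma-voom or edgeR's newer quasi-likelihood form. Its size leaned on the resistant libraries: log2 fold changes ran from 0.27 (replicate 1 of that group left out) to 0.71 (replicate 2 left out). Leaving out untreated replicate 1 gave 0.62, and leaving out untreated replicate 2 gave 0.40.

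Factors that act with or after ATF4 differed widely among themselves. ATF3 (ENSG00000162772), a stress-induced factor of the same family, stood at 46.5 and 24.5 CPM in resistant libraries and at 3.06 and 2.94 CPM in untreated ones (log2 fold change 3.56 ± 0.32, adjusted p = 8.03e-05, edgeR). Both resistant libraries were far above both untreated ones, which were nearly equal. DDIT3 (ENSG00000175197) encodes CHOP, a factor linked to death of stressed cells, and had 103 and 44.7 CPM in resistant against 8.56 and 6.84 CPM in untreated libraries. On a log scale, though not in CPM, resistant replicate 2 lay further above both untreated libraries than it lay below resistant replicate 1. The log2 fold change was 3.26 ± 0.43 (adjusted p = 0.00358, edgeR). DDIT3 shares 355 of its 1307 exon bases with MARS1 on the opposite strand, and the strand setting of the counting is not given in the sources used here, so its level is uncertain; MARS1 itself had fewer counts in resistant libraries (3001 and 3378, against 6565 and 5495). CEBPB, a C/EBP factor and partner of ATF4, had 86.3 and 61.0 CPM in resistant and 49.1 and 48.1 CPM in untreated libraries (0.60 ± 0.19, adjusted p = 0.0305, edgeR). Its relative CEBPG, a dimer partner of ATF4, had 77.4 and 48.7 CPM against 65.0 and 54.9 CPM, so that its groups overlapped (0.07 ± 0.22, adjusted p = 0.828, edgeR). ATF5, which is controlled in translation much like ATF4, had 163 and 89.1 CPM in resistant and 158 and 86.4 CPM in untreated libraries. In each group replicate 1 was the higher of the pair, and the groups overlapped (0.05 ± 0.39, adjusted p = 0.941, edgeR). ATF5 shares 626 of its 2954 exon bases with NUP62 on the opposite strand and is uncertain for the same reason.

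Downstream outputs included the widest difference of the set. NUPR1 (ENSG00000176046), a small stress-induced chromatin protein first described in the pancreas, had 162 and 78.9 CPM in resistant libraries and 1.95 and 3.21 CPM in untreated ones (log2 fold change 5.54 ± 0.48, adjusted p = 9.60e-04, edgeR). Both resistant libraries were far above both untreated ones, although they differed from each other. GDF15, a secreted stress cytokine, had 16.7 and 5.51 CPM in resistant against 1.71 and 0.908 CPM in untreated libraries. Its resistant libraries differed 3.04-fold from each other and still did not overlap with the untreated ones (3.08 ± 0.58, adjusted p = 0.00619, edgeR). PPP1R15A encodes GADD34, which returns eIF2 to its unphosphorylated state, and rose to 77.6 and 55.8 CPM in resistant libraries, against 30.2 and 27.8 CPM in untreated ones (1.20 ± 0.19, adjusted p = 0.00127, edgeR). VLDLR, a lipoprotein receptor, had 8.004 and 11.9 CPM in resistant and 1.95 and 3.53 CPM in untreated libraries (1.86 ± 0.37, adjusted p = 0.00384, edgeR), and was the only tested stress gene with a lower level in resistant replicate 1 than in replicate 2. CHAC1, an enzyme that breaks down glutathione, had 17.2 and 13.1 CPM against 9.02 and 6.92 CPM (0.93 ± 0.26, adjusted p = 0.0199, edgeR). TRIB3, a pseudokinase that damps ATF4 and CHOP, did not pass: it had 61.3 and 26.0 CPM in resistant libraries, the second below both untreated ones at 36.9 and 27.5 CPM (0.43 ± 0.42, adjusted p = 0.473, edgeR).

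The upstream kinases showed smaller differences. EIF2AK3 had 24.5 and 20.3 CPM in resistant and 16.7 and 16.3 CPM in untreated libraries, without overlap (0.44 ± 0.20, adjusted p = 0.120, edgeR). EIF2AK4 had 108 CPM in both resistant libraries, against 93.2 and 102 CPM in untreated ones (0.15 ± 0.15, adjusted p = 0.465, edgeR). Neither kinase passed the test, and mRNA levels do not report on kinase activity.

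The number of stress genes called higher, 8, depended on single libraries. It changed with each library left out. Over all tested genes the number called higher also fell in each of these fits, so a change in the count is not particular to these genes. ATF3, NUPR1, PPP1R15A and VLDLR kept their calls in each of these. DDIT3 was not called without untreated replicate 1 (adjusted p = 0.125, edgeR) or 2 (0.1395), nor was GDF15 (0.0653 and 0.0874), with log2 fold changes of 2.69 or more. CEBPB was not called without untreated replicate 1 (0.0959), untreated replicate 2 (0.0925) or resistant replicate 1 (0.288), and CHAC1 not without untreated replicate 2 (0.0978) or resistant replicate 1 (0.102). Without resistant replicate 1 the log2 fold changes were 4.95 for NUPR1, 2.55 for DDIT3 and 2.08 for GDF15, and that of TRIB3 was −0.30. Without resistant replicate 2 GDF15 had 3.67, and TRIB3 was called at 0.93 (adjusted p = 0.00199, edgeR).

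**Figure D2:**
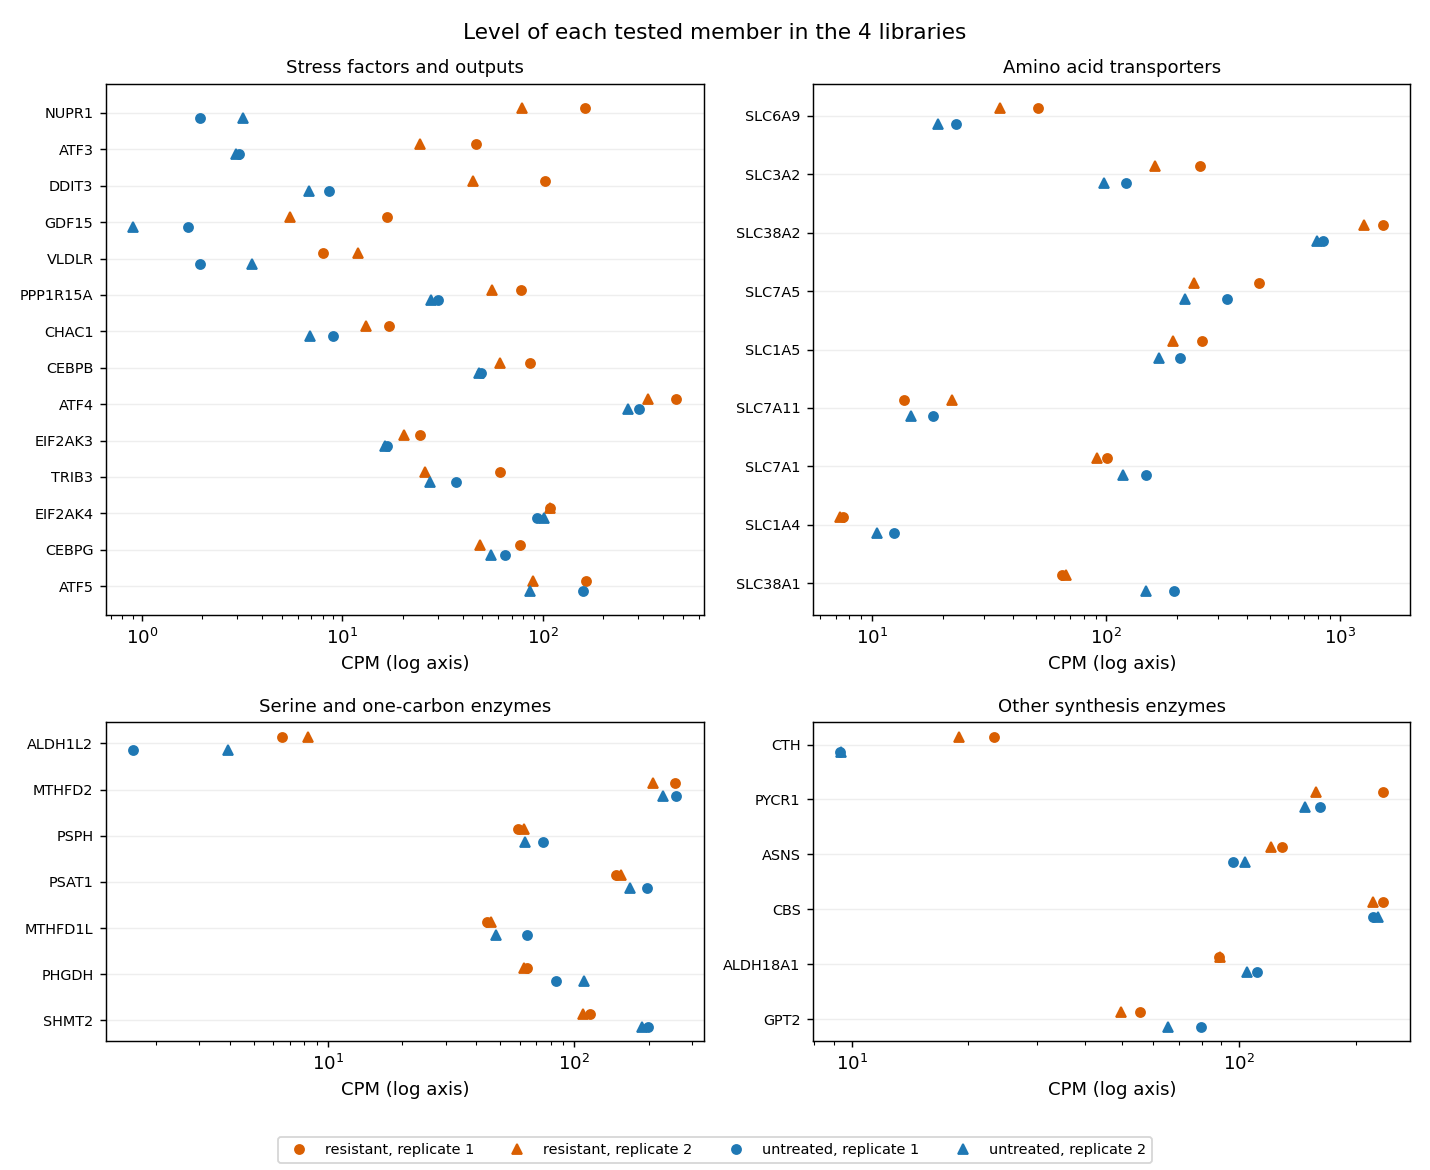
Level of each of the 36 tested genes in CPM (logarithmic horizontal axis) in the resistant (orange) and untreated (blue) libraries, circles for replicate 1 and triangles for replicate 2. The groups stand well apart for NUPR1, ATF3, DDIT3 and SLC38A1, and overlap for ATF5, CEBPG, TRIB3 and SLC7A5.

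Of the 7 tested serine and one-carbon enzymes, 2 were called lower and 1 higher, beside 17.4% and 16.6% of all tested genes, and 4 did not pass. Of the 7, 6 had a negative log2 fold change, with a median of −0.27. In 5 the resistant libraries lay below both untreated ones, as they did in 36.3% of all tested genes. PHGDH, which commits a glycolytic intermediate to serine synthesis, had 64.0 and 62.3 CPM in resistant libraries and 83.9 and 109 CPM in untreated ones (log2 fold change −0.61 ± 0.17, adjusted p = 0.0186, edgeR). The resistant libraries were close to each other and the untreated ones were spread, and without untreated replicate 2 the value was −0.42 with an adjusted p of 0.131 (edgeR). PSAT1, the next enzyme of the path, had 147 and 155 CPM against 197 and 168 CPM (−0.27 ± 0.16, adjusted p = 0.219, edgeR). PSPH, which releases serine in the last step, had 58.9 and 62.7 CPM against 74.5 and 63.0 CPM, with resistant replicate 2 and untreated replicate 2 almost equal (−0.18 ± 0.16, adjusted p = 0.426, edgeR). Of the path's enzymes the first was therefore the one called lower, while PSAT1 and PSPH had smaller negative values that did not pass.

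SHMT2, the mitochondrial enzyme that splits serine into glycine and a one-carbon unit, fell to 116 and 108 CPM in resistant libraries, against 199 and 187 CPM in untreated ones (−0.79 ± 0.16, adjusted p = 0.00381, edgeR). Its libraries were tight within each group, and it stayed called when any library was left out. MTHFD2, which oxidises that unit on folate, had 256 and 209 CPM in resistant and 259 and 228 CPM in untreated libraries, and the groups overlapped (−0.07 ± 0.17, adjusted p = 0.785, edgeR). MTHFD2 shares 1324 of its 4870 exon bases with SLC4A5 on the opposite strand, which had few counts. MTHFD1L, which releases formate from the mitochondrion, had 44.1 and 45.8 CPM against 63.9 and 47.9 CPM (−0.31 ± 0.18, adjusted p = 0.203, edgeR). ALDH1L2, a mitochondrial formyl-folate dehydrogenase, was the exception: it had 6.52 and 8.32 CPM in resistant libraries and 1.62 and 3.93 CPM in untreated ones (1.42 ± 0.42, adjusted p = 0.0259, edgeR). Its call was lost without untreated replicate 1 (0.94, adjusted p = 0.128, edgeR) and without resistant replicate 2 (1.23, 0.0644), and its value was 2.18 without untreated replicate 2.

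Enzymes that make other amino acids mostly did not pass. Of 6 tested, 1 was called higher, beside 16.6% of all tested genes, and the median log2 fold change was 0.17. That one was CTH, which makes cysteine from cystathionine: it had 23.3 and 18.9 CPM in resistant libraries, against 9.34 and 9.38 CPM in untreated ones (1.17 ± 0.22, adjusted p = 0.00311, edgeR), and it stayed called without any one library. CBS, the enzyme before it, had 236 and 222 CPM against 222 and 228 CPM and overlapping groups (0.03 ± 0.16, adjusted p = 0.918, edgeR). ASNS, which makes asparagine and is a standard readout of ATF4 activity, had 129 and 121 CPM in resistant and 96.6 and 103 CPM in untreated libraries. These did not overlap, and the difference did not pass (0.32 ± 0.15, adjusted p = 0.132, edgeR). Tested protein-coding genes of chromosome 7, where ASNS lies, had a median of 0.22. For the proline path, PYCR1 had 235 and 158 CPM against 161 and 148 CPM (0.35 ± 0.20, adjusted p = 0.210, edgeR), and ALDH18A1, which acts before it, had 88.7 and 89.1 CPM against 112 and 105 CPM (−0.28 ± 0.15, adjusted p = 0.174, edgeR). GPT2, the mitochondrial alanine aminotransferase, had 55.6 and 49.5 CPM in resistant and 79.9 and 65.4 CPM in untreated libraries (−0.47 ± 0.17, adjusted p = 0.0521, edgeR). The calls of GPT2 and PYCR1 depended on the setting: PYCR1 was called at 0.60 without resistant replicate 2 (adjusted p = 0.0363, edgeR), and GPT2 at −0.61 without untreated replicate 2 (0.0347) and with no filter on low counts (0.0446). Over both groups of enzymes, 2 of 13 were called higher, 2 lower and 9 did not pass, with a median of −0.18; whether the stress genes and the enzymes differ in their response was not tested.

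Amino acid transporters were called in both directions. Of 9 tested, 3 were called higher and 1 lower, beside 16.6% and 17.4% of all tested genes. The other 5 did not pass, and the median log2 fold change was 0.26. SLC38A1 (ENSG00000111371) and SLC38A2 are closely related sodium-coupled carriers of small neutral amino acids, glutamine among them. SLC38A1 fell 2.60-fold, to 64.4 and 67.3 CPM in resistant libraries, against 194 and 148 CPM in untreated ones (−1.38 ± 0.18, adjusted p = 3.86e-04, edgeR). SLC38A2, which is known to be induced by amino acid shortage, had 1527 and 1259 CPM in resistant and 843 and 794 CPM in untreated libraries (0.77 ± 0.17, adjusted p = 0.00692, edgeR). Neither pair of groups overlapped. SLC38A1 stayed called without any one library, while SLC38A2 lost its call when resistant replicate 1 was left out (0.64, adjusted p = 0.0772, edgeR).

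SLC3A2 encodes the shared heavy chain of several exchangers, and SLC7A5 and SLC7A11 encode light chains that pair with it. SLC3A2 had 251 and 162 CPM in resistant libraries and 121 and 97.9 CPM in untreated ones (0.91 ± 0.22, adjusted p = 0.0113, edgeR); tested protein-coding genes of its chromosome 11 had a median of 0.42. It was not called without untreated replicate 2 (0.76, adjusted p = 0.0613, edgeR) or resistant replicate 1 (0.58, 0.0572). SLC7A5, the large neutral amino acid chain, had 449 and 237 CPM in resistant and 329 and 217 CPM in untreated libraries, with overlap between the groups (0.33 ± 0.34, adjusted p = 0.494, edgeR). Its sign depended on 1 library, at −0.19 without resistant replicate 1 and 0.72 without resistant replicate 2 (adjusted p = 0.0302, edgeR). SLC7A11, the cystine and glutamate chain, had 13.6 and 21.9 CPM against 18.1 and 14.6 CPM (0.12 ± 0.26, adjusted p = 0.754, edgeR).

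SLC6A9, a glycine transporter, rose to 51.1 and 35.3 CPM in resistant libraries, against 22.9 and 19.2 CPM in untreated ones (1.04 ± 0.22, adjusted p = 0.00472, edgeR), and stayed called without any one library; it shares 404 of its 5159 exon bases with CCDC24. SLC7A1, a carrier of arginine and lysine, had 101 and 91.4 CPM against 147 and 118 CPM (−0.47 ± 0.17, adjusted p = 0.0542, edgeR), and was called without untreated replicate 2 (−0.63, 0.0288) and with no filter on low counts (0.0456). SLC1A4 and SLC1A5 are related exchangers of neutral amino acids. SLC1A4 had 7.52 and 7.31 CPM in resistant libraries and 12.3 and 10.5 CPM in untreated ones (−0.62 ± 0.25, adjusted p = 0.0832, edgeR). SLC1A5, the main glutamine carrier in many tumour lines, had 256 and 193 CPM against 206 and 168 CPM (0.26 ± 0.19, adjusted p = 0.313, edgeR). The count of transporters called higher, 3, changed in some fits with a library left out. Over all tested genes the number called higher fell in those fits too.

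Levels of different genes can be set side by side only per length, so CPM were divided by the length of each gene's exons. That length joins all annotated exons of a gene and can exceed the transcript's own length. It was 9.22 kb for PHGDH, 5.67 kb for NUPR1 and 1.31 kb for DDIT3. Ranks between genes, such as DDIT3 against PHGDH or SHMT2, therefore depend in part on the annotation. On that scale of CPM per kilobase, SLC38A2 was the highest gene of the set, at a mean of 211 in resistant and 124 in untreated libraries, followed by ATF4 at 159 and 112. DDIT3 stood at 56.4 in resistant and 5.89 in untreated cells, and so was above SHMT2 (23.1) in resistant cells and below PHGDH (10.5) in untreated ones. ATF3 reached 8.79 in resistant cells, against 0.742 in untreated ones, and NUPR1 21.2 against 0.454. SLC7A5 (72.3 in resistant and 57.5 in untreated cells), PSAT1 (69.1 and 83.5), PYCR1 (68.1 and 53.6) and SLC1A5 (67.3 and 56.1) came next in resistant cells and lay close together. ALDH1L2 (0.872 and 0.326) and VLDLR (1.07 and 0.293) stayed among the lowest of the tested genes in spite of their fold changes.

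Resistant libraries differed from each other in the stress arm. Replicate 1 was above replicate 2 in 13 of 14 stress genes, with a median log2 ratio of 0.59, against 48.9% of all tested genes and a median of −0.01. GDF15 was 3.04-fold higher in resistant replicate 1 than in replicate 2, TRIB3 2.36-fold, DDIT3 2.30-fold, NUPR1 2.05-fold and ATF3 1.90-fold. The same was so for 7 of 9 transporters (median 0.28), led by SLC7A5 at 1.89-fold, and for 3 of 7 serine and one-carbon enzymes (median −0.05) and 5 of 6 other enzymes (median 0.13). In untreated libraries replicate 1 was above replicate 2 in 28 of the 36 genes (median 0.21), against 49.1% of all tested genes. By role these were 11 of 14 stress genes (median 0.15), 9 of 9 transporters (0.31), 5 of 7 serine and one-carbon enzymes (0.18) and 3 of 6 other enzymes (0.04). Among them ATF5 was 1.83-fold, GDF15 1.88-fold and SLC7A5 1.52-fold higher. In both groups replicate 1 was thus the higher in most transporters and most stress genes, and the median for stress genes was larger in resistant libraries. With 1 library each these are values without a test. Summed fibroblast markers were also higher in resistant replicate 1 than in replicate 2, as were immune markers, and their part in the difference was not tested.

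**Figure D3:**
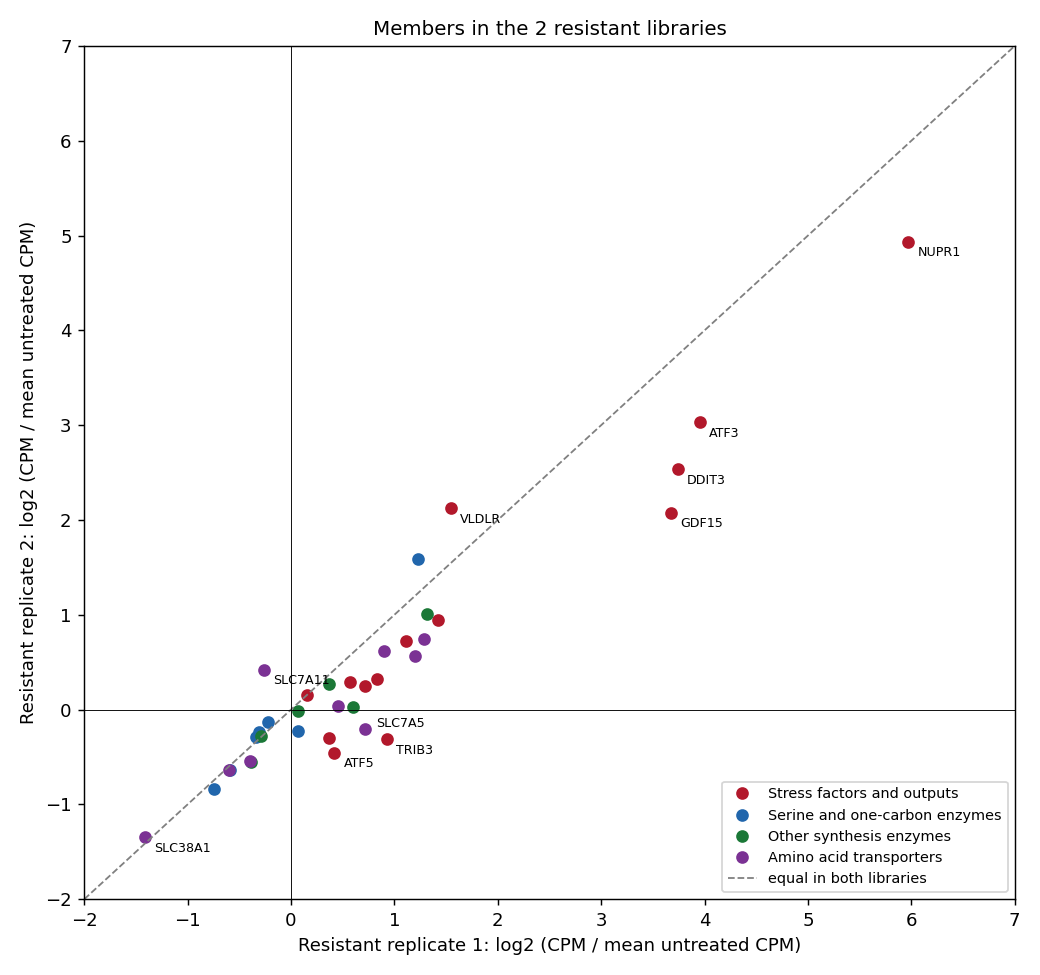
Log2 ratio of each gene's CPM to its untreated mean in resistant replicate 1 (horizontal axis) and replicate 2 (vertical axis), coloured by role, with a dashed line where both are equal. Stress genes other than VLDLR lie on or below the line, and enzymes of serine and one-carbon synthesis lie on both sides of it.

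Other genes of these paths were taken from lists chosen with earlier results of these data known, with the 37 left out. CARS1 stands in a pair of them, as a stress target and as a synthetase, and counts once in the total. For each list, here and below, the shares over all tested genes to read beside it are 16.6% called higher and 17.4% called lower. Of 126 tested, 27 were called higher and 31 lower. Without untreated replicate 1 the count called lower was smaller, as was the count called lower over all tested genes. Of 13 tested further targets of the stress response, 7 were called higher and 1 lower, with a median log2 fold change of 0.66. GADD45A, a growth regulator induced by stress, had 282 and 162 CPM in resistant and 17.0 and 15.5 CPM in untreated libraries (3.77 ± 0.27, adjusted p = 3.84e-05, edgeR). DDIT4, an inhibitor of mTOR complex 1, had 464 and 291 CPM against 88.9 and 95.8 CPM (2.03 ± 0.22, adjusted p = 2.07e-04, edgeR). KLHL24, a ubiquitin ligase adaptor, had 136 CPM in both resistant libraries, against 27.9 and 37.3 CPM in untreated ones (2.06 ± 0.18, adjusted p = 3.26e-05, edgeR). XPOT, a tRNA exporter, had overlapping groups (−0.05 ± 0.17, adjusted p = 0.836, edgeR). JDP2, HERPUD1, TSC22D3 and NDRG1 were the other genes called higher, and the mitochondrial protease LONP1 was called lower. All 13 were higher in resistant replicate 1 than in replicate 2.

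Cytosolic tRNA synthetases, which charge tRNAs with amino acids and include known ATF4 targets, were lower more often than higher: of 20 tested, 1 rose (AARS1) and 7 fell, with a median of −0.34. HARS1, for histidine, had 54.7 and 69.7 CPM in resistant and 157 and 123 CPM in untreated libraries (−1.17 ± 0.19, adjusted p = 0.00125, edgeR); it shares exon bases with HARS2. TARS1, for threonine, had 99.4 and 112 CPM against 264 and 196 CPM (−1.12 ± 0.19, adjusted p = 0.00150, edgeR). HARS1, TARS1 and RARS1, which was also called lower, lie on chromosome 5, where tested protein-coding genes had a median of −0.41. FARSA, a subunit for phenylalanine, had 48.8 and 50.01 CPM against 125 and 86.6 CPM (−1.10 ± 0.19, adjusted p = 0.00193, edgeR). WARS1, for tryptophan, had 815 and 533 CPM in resistant and 492 and 352 CPM in untreated libraries and did not pass (0.68 ± 0.24, adjusted p = 0.0544, edgeR); without resistant replicate 2 it was called (0.95, 0.00346), as it was without untreated replicate 1 (0.96, 0.0393). The machinery around eIF2 (16 tested) had 1 gene higher and 2 lower, with a median of −0.01. EIF2S1, the subunit that is phosphorylated, had 66.9 and 68.7 CPM against 162 and 116 CPM (−1.03 ± 0.18, adjusted p = 0.00228, edgeR). The adaptor NCK1 (0.61 ± 0.17, adjusted p = 0.0186, edgeR) and the exchange factor subunit EIF2B3 (−0.63 ± 0.18, adjusted p = 0.0194, edgeR) also passed. Neither held without every library: NCK1 had an adjusted p of 0.105 without untreated replicate 2, and EIF2B3 0.126 without untreated replicate 1 and 0.0645 without resistant replicate 1 (edgeR). EIF2S3, another subunit of eIF2, did not pass (0.33 ± 0.16, adjusted p = 0.133, edgeR).

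Folate and glycine cycle genes were lower in 10 of 20 tested and higher in 2, with a median of −0.56. GLDC, which cleaves glycine in the mitochondrion, had 0.794 and 0.859 CPM in resistant libraries, against 9.13 and 7.32 CPM in untreated ones (−3.31 ± 0.37, adjusted p = 1.56e-04, edgeR). MTHFD1, the cytosolic partner of the mitochondrial folate enzymes, fell to 116 and 125 CPM, against 269 and 235 CPM (−1.06 ± 0.16, adjusted p = 0.00108, edgeR). MTRR, which reactivates methionine synthase, fell to 28.8 and 30.7 CPM, against 75.7 and 61.1 CPM (adjusted p = 7.42e-04, edgeR). MTRR also lies on chromosome 5, with its median of −0.41, as do SFXN1 and MAT2B, which were called lower too. AHCY, which clears S-adenosylhomocysteine, overlapped between groups (−0.02 ± 0.16, adjusted p = 0.923, edgeR), with a sign that turned under upper-quartile scaling. Genes of proline, glutamine and aspartate metabolism (16 tested) were higher in 3 and lower in 5, with a median of −0.10. GLUL, which makes glutamine, had 89.6 and 96.1 CPM in resistant and 5.33 and 6.73 CPM in untreated libraries (3.94 ± 0.20, adjusted p = 6.61e-07, edgeR). ARG2, mitochondrial arginase, was higher (1.31 ± 0.21, adjusted p = 0.00134, edgeR), with 904 of its 2418 exon bases shared with VTI1B on the opposite strand. PYCR3, a proline enzyme, was lower (−1.38 ± 0.23, adjusted p = 0.00152, edgeR), and BCAT2, for branched-chain amino acids, did not pass (−0.04 ± 0.15, adjusted p = 0.853, edgeR). Further amino acid transporters (15 tested of 22) were higher in 3 and lower in 4, with a median of −0.29. SLC1A3, a glutamate and aspartate carrier, had 4.69 and 5.27 CPM in resistant libraries, against 0.217 and 0.401 CPM in untreated ones (3.996 ± 0.47, adjusted p = 2.40e-04, edgeR). SLC43A1, a carrier of large neutral amino acids, was higher (1.29 ± 0.28, adjusted p = 0.00607, edgeR), the lysosomal arginine sensor SLC38A9 was lower (−1.08 ± 0.24, adjusted p = 0.00678, edgeR) and SLC38A10 did not pass (−0.04 ± 0.16, adjusted p = 0.884, edgeR). SLC43A1 lies on chromosome 11 (median 0.42), and SLC1A3 and SLC38A9 lie on chromosome 5 (median −0.41).

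**Figure D4:**
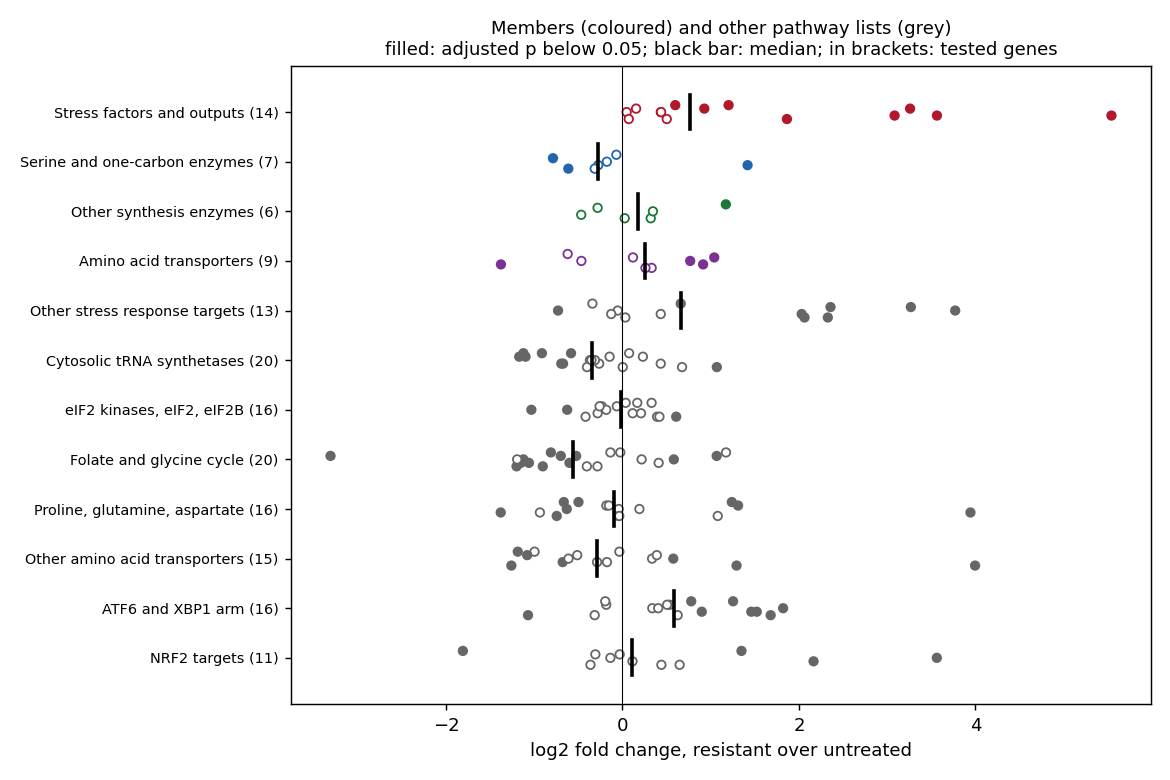
Log2 fold change (resistant over untreated; horizontal axis) of each tested gene, with the 36 genes of the set by role in colour and 8 further lists in grey; filled points have an adjusted p below 0.05 and black bars are medians. Medians run between −0.56 for the folate and glycine cycle and 0.76 for the stress factors and outputs.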

How the data were processed

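Each library had 1 deposited table of expected counts by gene, unscaled for depth per the file headers; 93.6% of values were whole numbers. Per the submitters' processing notes, STAR 2.7.2b, RSEM 1.3.1 and the genome build GRCh37 were used; annotation release and strand setting are not given in the sources used here. Groups came from sample titles. Expected counts were rounded, genes were kept with filterByExpr (16090 of 57773; 32449 IDs were 0 in all libraries), scaled by TMM and compared with edgeR 4.0.16's quasi-likelihood test with robust dispersions (R 4.3.3), p-values adjusted over all tested genes and called below 0.05. The script was tested on simulated data. Fold changes are log2, resistant over untreated, and the standard error is the fold change's size divided by the square root of F. CPM use TMM-scaled depth.

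The 37 genes and the further lists were chosen with earlier results of these data known. All 37 are named; of each further list up to 3 called genes with the smallest adjusted p and the one not called with the highest mean CPM are named with values, and others by name only. Exon lengths, overlaps and chromosomes came from GENCODE 29, which is of another build, so no coordinates were taken from it; promoter windows and their coordinates are RefSeq's (GRCh38.p14). The labels do not say whether replicate numbers pair the libraries. Deviations of replicate 1 from its group mean had a correlation of −0.06 across genes between the groups, which does not settle it. Alternatives tried were upper-quartile and RLE scaling, leaving out the filter, at least 1 CPM in 2 libraries, a block for replicate number, each library left out, DESeq2 1.42.0, limma-voom (limma 3.58.1), edgeR's newer quasi-likelihood form and a threshold of 0.01.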

Additional observations from a re-analysis of the deposited data

How the results depend on the processing

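RLE scaling, limma-voom and the newer quasi-likelihood form left the direction and call of all 36 genes as they were, and no called gene of the set turned its sign under any alternative. Of the 16 called, 8 stayed called in all alternatives at 0.05 (ATF3, NUPR1, PPP1R15A, VLDLR, SHMT2, CTH, SLC38A1 and SLC6A9). Without 1 library, where the lone library of a group is assumed to vary like the others, the count of all genes called (5463) lay between 2832 (without untreated replicate 1) and 5041. Genes of the set called higher (13) then lay between 8 (without untreated replicate 2) and 16, and genes of the further lists called lower (31) between 14 (without untreated replicate 1) and 29. At a threshold of 0.01, 2832 genes were called in all, and 18 of the further lists were lower. The set's 3 lower genes became 5 with no filter and 5 with the replicate block, where GPT2 and SLC7A1 were added. The block also called ATF4 higher (14 in all), lost no call of the set and left 5275 calls over all genes. Whether the numbers pair the libraries is not given in the labels. Without 1 library, signs turned in genes that had not passed: log2 fold changes ran from −0.44 to 0.57 for ATF5, −0.29 to 0.37 for CEBPG, −0.30 to 0.93 for TRIB3, −0.21 to 0.070 for MTHFD2, −0.0027 to 0.067 for CBS, −0.19 to 0.72 for SLC7A5, −0.27 to 0.43 for SLC7A11, −0.19 to 0.083 for XPOT, −0.14 to 0.11 for AHCY, −0.13 to 0.059 for BCAT2 and −0.11 to 0.060 for SLC38A10. AHCY also had 0.0027 with upper-quartile scaling and 0.0064 with at least 1 CPM in 2 libraries; the cause of these shifts was not tested. No scaling moved the median of all genes by more than 0.03. With 2 libraries a group, differences near 0.3 in log2 mostly did not pass, and genes under 2 CPM in a group, such as GDF15 in untreated cells, rest on few counts.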

Other observations

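The neighbouring arms of the stress response were read in the same comparison. Of 16 tested genes of the ATF6 and XBP1 arm, which builds folding capacity in the endoplasmic reticulum, 7 were called higher in resistant cells and 1 lower, with a median log2 fold change of 0.58. DNAJB9, a chaperone partner, had 33.7 and 25.3 CPM in resistant and 8.31 and 8.39 CPM in untreated libraries (1.82 ± 0.22, adjusted p = 2.81e-04, edgeR). XBP1 itself had 254 and 155 CPM against 77.6 and 64.7 CPM (1.52 ± 0.24, adjusted p = 0.00155, edgeR), on chromosome 22 with its median of 0.46. HYOU1, another chaperone, rose (1.25 ± 0.18, adjusted p = 7.18e-04, edgeR), and the isomerase PDIA6 did not pass (0.34 ± 0.17, adjusted p = 0.155, edgeR). HYOU1 lies on chromosome 11, with a median of 0.42. HSPA5, HSP90B1, DNAJC3 and PDIA4 were also called higher, and SDF2L1 lower. Resistant replicate 1 was above replicate 2 in 15 of the 16.

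Of 11 tested targets of NRF2, the antioxidant factor, that are not among the 37 genes, 3 were called higher and 1 lower, with a median of 0.11. HMOX1, heme oxygenase, had 116 and 118 CPM in resistant libraries, against 24.8 and 27.3 CPM in untreated ones (2.17 ± 0.16, adjusted p = 1.08e-05, edgeR). It lies on chromosome 22, with a median of 0.46. OSGIN1, a growth inhibitor induced by oxidative stress, had 89.0 and 51.6 CPM against 6.15 and 5.74 CPM (3.56 ± 0.27, adjusted p = 3.12e-05, edgeR). GCLM, the modifier subunit of the enzyme that starts glutathione synthesis, fell to 52.6 and 52.9 CPM, against 213 and 157 CPM (−1.81 ± 0.18, adjusted p = 9.20e-05, edgeR). NQO1, a quinone reductase, had 919 and 922 CPM against 654 and 703 CPM and did not pass (0.44 ± 0.16, adjusted p = 0.0550, edgeR). That depended on the setting. NQO1 was called with DESeq2 (adjusted p = 0.0221), limma-voom (0.0438), upper-quartile scaling, the stricter filter and the replicate block. It was not called with RLE scaling, no filter or edgeR's newer form. Here resistant replicate 1 was above replicate 2 in 3 of the 11.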
